A study of Homo sapiens with 12 samples.

Results

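The 10 regulators of mesoderm and endoderm were followed through the 12 libraries of the series. They were chosen by gene symbol, as EOMES, MIXL1, GSC, GATA4, GATA6, FOXA2, HAND1, MESP1, CXCR4 and HNF4A, and all 10 were present among the 26641 genes of the count table. RNA had been sequenced from NCCIT, a human embryonal carcinoma cell line, after each of 6 transgenic lines had been treated with doxycycline for 4 days to switch on an S. pyogenes dCas9 fusion. The fusion was dCas9-VPR, which carries an activation domain (CRISPRa), or dCas9-KRAB, which carries a repression domain (CRISPRi). Each line also expressed 1 of 3 guide RNA arrays. The LTR5HS Sp array targets LTR5HS, the long terminal repeat of the youngest HERVK endogenous retroviruses, and is called recruitment. The LTR5HS Sa array holds guides against the same repeat on an S. aureus scaffold that does not join this dCas9, while the nontarget Sp array holds guides without a match in the genome. Both are called control. Every line gave 2 independent replicates, so that 2 recruitment libraries stood against 4 control libraries with each fusion. Each combination of fusion and array was 1 line, and effects of a line and of what it carries cannot be told apart.

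During gastrulation, Nodal, Wnt and BMP signals induce the primitive streak, from which mesoderm and definitive endoderm emerge. Embryonal carcinoma cells are the malignant counterpart of the pluripotent cells that precede this step, and they can enter these lineages when they differentiate. EOMES is a T-box factor of the streak, and MIXL1 and GSC are homeodomain factors of the streak and of the organizer. GATA4 and GATA6 are zinc finger factors of endoderm and heart. FOXA2 is a forkhead factor of definitive endoderm that opens chromatin, and HNF4A is a nuclear receptor of liver and gut. MESP1 and HAND1 are basic helix-loop-helix factors, the former of early cardiac mesoderm and the latter of lateral mesoderm, heart and trophoblast. CXCR4 is the receptor for the chemokine CXCL12 and a surface marker used to sort definitive endoderm.

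The guides of the recruitment array are 16 bases long, and 3 of the 12 are shown because their perfect matches lie nearest to a gene of this group. Guide LTR5HS-7 had 525 perfect matches next to an NGG PAM in the genome (GRCh38), LTR5HS-8 had 726 and LTR5HS-4 had 322. The sites are written 5′ to 3′ on the strand that matches the guide, with the PAM in capitals.
EOMES, LTR5HS-7, chr3:27531597-27531615, minus strand: aaccttggacaataccCGG
GSC, LTR5HS-4, chr14:94626556-94626574, plus strand: agcccgacacccgtaaAGG
GSC, LTR5HS-8, chr14:94626569-94626587, plus strand: taaagggtctgtgctgAGG
No annotated gene overlapped these 3 sites. The first lies 191 kb downstream of the EOMES start, and the pair of overlapping sites lies 144 kb downstream of the GSC start.

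Matches within 1000 bp of each other were joined into places, and the distance from a gene start to the nearest place with at least 2 different guides was measured. GSC (chr14:94768223-94770113) was the 1 gene of the 10 with such a place within 200 kb. Among the genes tested with CRISPRa that had an annotated start, 12.8% had one, and their median distance was 1491 kb. MESP1 (chr15:89749875-89751249) lay 596 kb from its nearest place, FOXA2 (chr20:22580998-22585455) 1110 kb, MIXL1 (chr1:226223618-226227060) 1645 kb, HAND1 (chr5:154474972-154478227) 2180 kb and HNF4A (chr20:44355699-44432845) 2384 kb. CXCR4 (chr2:136114349-136119177) lay 3943 kb away, GATA6 (chr18:22169589-22202528) 4033 kb, EOMES (chr3:27715949-27722711) 4177 kb and GATA4, on chromosome 8, 4197 kb. With a single guide as the minimum, EOMES came to 191 kb and GATA4 to 513 kb. At that minimum, 17.8% of the CRISPRa-tested genes with an annotated start had a place within 200 kb, and their median distance was 967 kb. With at least 4 guides, GSC moved to 5542 kb. These distances rest on sequence matches anywhere in the genome and not on measured binding. Whether a match lies in a copy of LTR5HS was not examined.

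**Figure D1:**
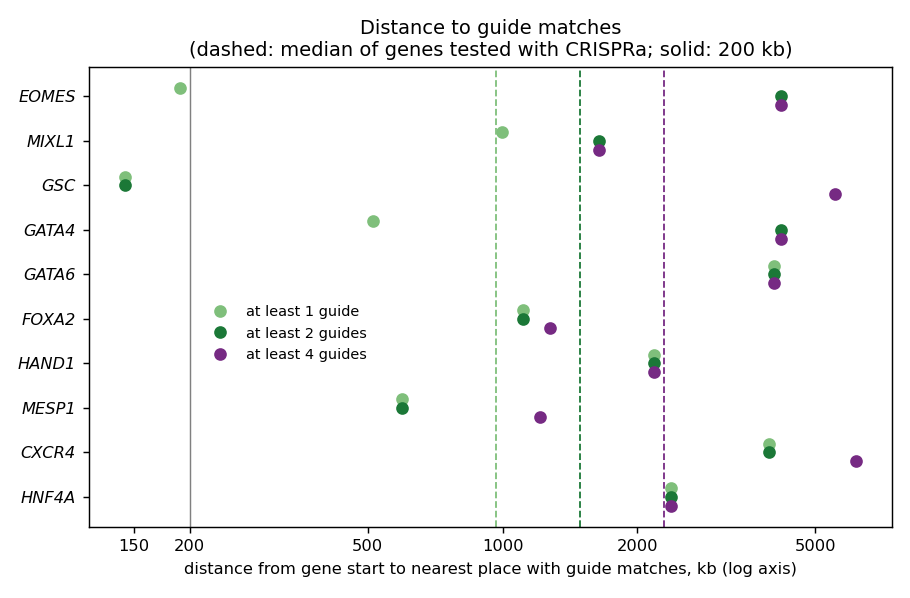
Distance in kb (log axis) from the start of each of the 10 genes to the nearest place with perfect guide matches, for at least 1, 2 or 4 different guides. The dashed lines are the medians of the genes tested with CRISPRa, and the solid line marks 200 kb. GSC, at 144 kb with 2 guides, is the 1 gene within 200 kb at that minimum, whereas EOMES is within it for 1 guide alone.

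The libraries held between 13601701 and 69797411 counts, with a median of 18256928. The deepest, dCas9-KRAB nontarget Sp replicate 2, was 3.84 times as deep as the median of the rest. Levels are given as CPM, the usual unit of counts relative to the size of a library, here with TMM library sizes. A floor of 3 counts corresponded to 0.0462 to 0.233 CPM, and floors and counting intervals cover counting error only. The embryonal carcinoma identity was checked on 10 markers of pluripotent cells, which include POU5F1, SOX2, NANOG and LIN28A. Each of the 10 was above 3 counts in at least 1 library of every group. Their summed level, however, was 1139 to 1766 CPM in the dCas9-VPR control libraries and 5114 to 6409 CPM in the dCas9-KRAB control libraries. This gap is described further with the fusions.

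On the scale of CPM per kilobase of gene length (RPKM), which allows levels of different genes to be set side by side, HAND1 had the highest mean of the 10 genes in every group. It was 117 ± 38.4 RPKM (SD, n = 4) in the dCas9-VPR control libraries and 5.37 ± 3.21 RPKM (SD, n = 4) in the dCas9-KRAB control libraries, where its range overlapped that of CXCR4. In the dCas9-VPR controls MESP1 and MIXL1 followed at 2.01 ± 0.629 and 2.00 ± 0.205 RPKM, whose ranges overlapped, and then GATA4 at 0.919 ± 0.320 RPKM (SD, n = 4 each). CXCR4 at 0.460 ± 0.177 RPKM overlapped both GATA4 and GATA6, at 0.378 ± 0.0238 RPKM. FOXA2 at 0.244 ± 0.0733 RPKM overlapped GSC at 0.168 ± 0.0552 RPKM, and HNF4A at 0.0603 ± 0.0188 and EOMES at 0.0579 ± 0.0199 RPKM were lowest and overlapped each other (SD, n = 4 each). In the dCas9-KRAB controls the order after HAND1 was CXCR4 at 2.51 ± 1.46, MIXL1 at 1.18 ± 0.240, MESP1 at 1.08 ± 0.572, GSC at 0.306 ± 0.0799 and HNF4A at 0.150 ± 0.0159 RPKM (SD, n = 4 each). GATA4, EOMES, GATA6 and FOXA2 followed between 0.146 and 0.0471 RPKM, each overlapping the next. Overlap between neighbours in the order held for 5 of 9 pairs with dCas9-VPR and 7 of 9 with dCas9-KRAB.

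**Figure D2:**
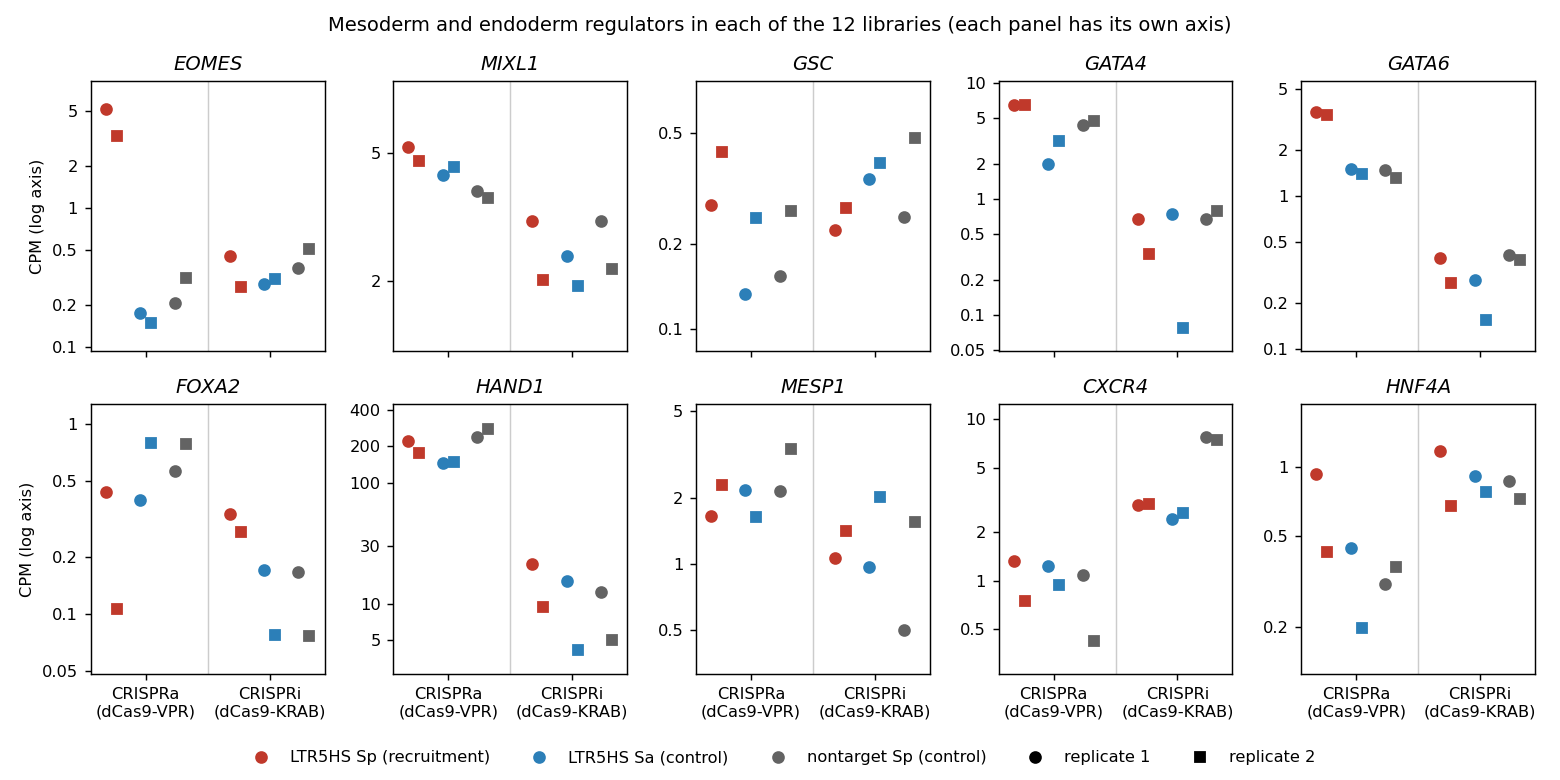
CPM (log axis, a separate axis for each gene) of the 10 genes in each of the 12 libraries, by fusion, guide array and replicate. EOMES and GATA6 are highest in the 2 dCas9-VPR recruitment libraries, HAND1 is high in all 6 dCas9-VPR libraries, and CXCR4 is highest in the 2 dCas9-KRAB nontarget Sp libraries.

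To ask whether activation at LTR5HS was accompanied by a change in these regulators, recruitment was compared with control among the 6 dCas9-VPR libraries. EOMES and GATA6 were higher with recruitment, EOMES by 19.6-fold and GATA6 by 2.44-fold, and none of the 10 genes fell past the threshold. With edgeR's quasi-likelihood F-test and an adjusted p-value threshold of 0.05 over all 16271 genes tested, 28.0% of genes were called, 15.7% as higher and 12.3% as lower. Of the 10 regulators, 8 passed the filter on low counts, and 2 of these 8 were called. GSC and HNF4A did not pass the filter. In 4 of the 8 the recruitment libraries lay wholly above the control libraries and in 0 wholly below, against 25.0% of all genes tested in each direction and 50.0% in both together. The median log2 fold change of the 8 was 0.23, against -0.02 over all genes tested. In bulk RNA, a change in the share of cells that express a gene and a change in its RNA per cell cannot be told apart.

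EOMES was measured at 5.13 and 3.30 CPM in the recruitment libraries, from 93 and 62 counts. In the LTR5HS Sa libraries it was at 0.177 and 0.149 CPM and in the nontarget Sp libraries at 0.206 and 0.315 CPM, from 3 to 6 counts each. Both recruitment libraries thus stood clear of every control library, where EOMES was at or just above the floor of 3 counts. The log2 fold change was 4.29 (SE 0.35, edgeR adjusted p = 6.22e-05). Counts pooled within recruitment and within control, each relative to the pooled TMM library sizes, had a ratio of 20.0. Its 95% counting interval was 12.1 to 35.3. EOMES passed the filter through its recruitment libraries alone, so its entry into the test already required a difference. A fit without the filter gave 4.28 (adjusted p = 1.76e-05). The call held in the 16 alternatives in which the gene could be tested, with log2 fold changes from 3.95 to 4.63.

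GATA6, which with GATA4 directs endoderm and heart formation, was at 3.53 and 3.40 CPM with recruitment, from 64 counts in each library. It was at 1.51 and 1.39 CPM in the LTR5HS Sa libraries and at 1.49 and 1.31 CPM in the nontarget Sp libraries. The 4 control libraries lay close together, and both recruitment libraries lay above all of them. This gave a log2 fold change of 1.29 (SE 0.22, edgeR adjusted p = 0.00318), and it passed the threshold in all 17 alternatives, from 1.25 to 1.32.

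Because these 2 genes rose together, their promoters are shown from RefSeq (GRCh38.p14), 5′ to 3′ on the strand of the gene, with motif matches on either strand in capitals. The core promoter motifs searched were TATAAA for the TATA box, CCAAT for the CAAT box and GGGCGG for the GC box. The factor motifs were CANNTG for the E-box of helix-loop-helix factors, AGATAA for GATA factors, TGTTTAC for forkhead factors and AGGTGTGA for T-box factors.
EOMES, chr3:27722274-27722573: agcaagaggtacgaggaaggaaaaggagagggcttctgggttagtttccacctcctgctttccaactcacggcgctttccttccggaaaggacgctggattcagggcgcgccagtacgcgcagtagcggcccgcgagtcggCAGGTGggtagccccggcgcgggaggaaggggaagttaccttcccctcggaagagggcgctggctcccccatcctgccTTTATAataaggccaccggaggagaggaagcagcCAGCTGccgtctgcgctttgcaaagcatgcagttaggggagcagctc
GATA6, chr18:22169339-22169638: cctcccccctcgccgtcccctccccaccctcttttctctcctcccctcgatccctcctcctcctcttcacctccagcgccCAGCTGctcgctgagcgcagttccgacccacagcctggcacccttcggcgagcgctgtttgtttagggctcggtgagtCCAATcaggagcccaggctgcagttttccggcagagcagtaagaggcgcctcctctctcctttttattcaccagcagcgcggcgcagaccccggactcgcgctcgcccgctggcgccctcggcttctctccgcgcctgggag
In EOMES the capitals mark a TATAAA match on the opposite strand at -31 from the start and E-boxes at -109 and 4. In GATA6 they mark an E-box at -170 and CCAAT at -92. Of 35116 promoters of the same length, 11.5% held TATAAA, 68.7% an E-box and 34.6% CCAAT. The letters of the GATA, forkhead and T-box motifs were found in neither window, against 10.3%, 3.42% and 0.980% of all promoters. Neither promoter held a perfect match to any of the 12 guides. The promoters of 7 of the 10 genes were matched in the RefSeq table by symbol, and those of GATA4, FOXA2 and MESP1 were not.

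GATA4 lay at 6.45 and 6.49 CPM with recruitment, above the 1.99 and 3.18 CPM of LTR5HS Sa and the 4.37 and 4.73 CPM of nontarget Sp. The groups did not overlap, yet the control libraries were spread widely. The log2 fold change of 0.87 (SE 0.32) missed the threshold (edgeR adjusted p = 0.0737). It passed when the control arrays entered as separate groups (0.93, adjusted p = 0.00824), with LTR5HS Sa alone as control (1.33, adjusted p = 0.00508) and without nontarget Sp dCas9-VPR replicate 2 (1.04, adjusted p = 0.0491), and in none of the other alternatives.

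FOXA2 had a negative log2 fold change of -1.19 (SE 0.59, edgeR adjusted p = 0.170) that did not pass. It rested on 8 and 2 counts with recruitment, 0.441 and 0.106 CPM, against 9 to 16 counts in the control libraries, 0.398 to 0.796 CPM. Of the 2 recruitment libraries, 1 lay within the control range and 1 below it. Leaving out LTR5HS Sp dCas9-VPR replicate 1 gave -2.49 and leaving out replicate 2 gave -0.51, neither past the threshold.

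Among the streak and mesoderm factors, MIXL1 lay at 5.24 and 4.73 CPM with recruitment, just above its control range of 3.63 to 4.52 CPM, with a log2 fold change of 0.30 (SE 0.20, edgeR adjusted p = 0.297). HAND1 was at 219 and 177 CPM, between the 145 and 148 CPM of LTR5HS Sa and the 239 and 279 CPM of nontarget Sp. Its log2 fold change was -0.02 (SE 0.27, edgeR adjusted p = 0.963) against both control arrays, and its direction depended on the array. Against LTR5HS Sa alone it was 0.43 and passed the threshold (edgeR adjusted p = 0.0236), and against nontarget Sp alone it was -0.37 and did not. MESP1 (log2 fold change -0.23, SE 0.33) and CXCR4 (0.16, SE 0.46) overlapped their controls and did not pass, with edgeR adjusted p-values of 0.652 and 0.827. GSC, with 5 and 8 counts against 3 to 5, and HNF4A, with 17 and 8 counts against 4 to 10, were too low to be tested, and without the filter they had adjusted p-values of 0.363 and 0.187.

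**Figure D3:**
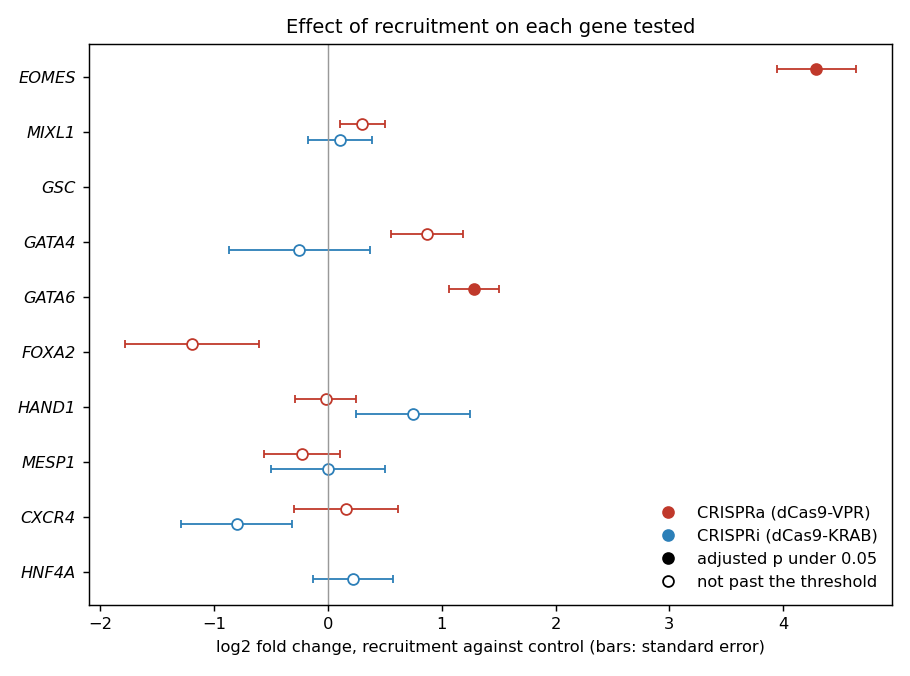
Log2 fold change of recruitment against control for each gene that could be tested, with its standard error, for CRISPRa and CRISPRi. Filled points passed an edgeR adjusted p-value of 0.05. EOMES at 4.29 and GATA6 at 1.29 with CRISPRa are the filled points, and the 6 genes tested with CRISPRi are all open.

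Markers of cell types were also read in the same comparison, and the summed level of fibroblast and smooth muscle alone lay apart from control. The summed level of 8 markers of fibroblast and smooth muscle was 3056 to 3171 CPM with recruitment and 166 to 226 CPM in control, of which the collagen gene COL1A1 made up 2870 to 2992 CPM with recruitment. In that list 2 of the 5 genes tested rose and none fell, and DCN and ACTA2 were at 3 counts or fewer in the recruitment libraries. The 10 pluripotency markers summed to 1214 to 1258 CPM with recruitment, within the 1139 to 1766 CPM of control, and 1 rose and 3 fell. The 8 trophoblast markers other than HAND1 summed to 168 to 175 CPM against 152 to 371 CPM, with CDX2 and GATA3 higher and ELF5 and CGA at 3 counts or fewer. The 10 neural markers summed to 1616 to 1742 CPM against 1082 to 1845 CPM, and of the 8 tested 2 rose and 2 fell. The 7 blood markers summed to 36.3 to 41.1 CPM against 35.8 to 38.2 CPM. None of the 3 blood markers tested passed the threshold, and PTPRC and HBG1 were at 3 counts or fewer. The part of these markers in the values of EOMES and GATA6 was not tested.

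With CRISPRi, recruitment was compared with control among the 6 dCas9-KRAB libraries. None of the 6 regulators tested was called, where 2.77% of 15520 genes were called, 0.831% as higher and 1.94% as lower. By edgeR, 0 of the 6 had an unadjusted p-value under 0.05, a count without its share over all genes. DESeq2's Wald test also called 0 of the 6, where it called 716 of 15520 genes. EOMES, GSC, GATA6 and FOXA2 did not pass the filter on low counts. None of the 6 tested genes had recruitment libraries wholly apart from control, against 23.1% of all genes tested, 10.8% above and 12.3% below, and the median log2 fold change was 0.05, against 0.00060 over all genes tested.

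HAND1 was at 21.5 and 9.45 CPM with recruitment, against 15.5 and 4.19 CPM with LTR5HS Sa and 12.6 and 5.05 CPM with nontarget Sp. With all 3 arrays replicate 1 was the higher library, and the groups overlapped across replicates. The log2 fold change was 0.75 (SE 0.50, edgeR adjusted p = 0.560), and with the replicate number as a block it was 0.82 and passed the threshold (edgeR adjusted p = 0.0429). Leaving out LTR5HS Sp dCas9-KRAB replicate 1 brought it to 0.03 (adjusted p = 0.984).

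CXCR4 was at 2.92 and 2.97 CPM with recruitment, at 2.40 and 2.64 CPM with LTR5HS Sa and at 7.72 and 7.40 CPM with nontarget Sp. Recruitment and LTR5HS Sa thus lay close together, and the nontarget Sp line stood apart from both. Against both control arrays the log2 fold change was -0.80 (SE 0.49, edgeR adjusted p = 0.521), and it was -1.35 against nontarget Sp alone (edgeR adjusted p = 0.0106) and 0.23 against LTR5HS Sa alone (edgeR adjusted p = 0.966).

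The other 4 genes tested with CRISPRi had log2 fold changes between -0.25 (GATA4, SE 0.62) and 0.22 (HNF4A, SE 0.35), with MIXL1 at 0.11 (SE 0.28) and MESP1 at 0.00056 (SE 0.50), and edgeR adjusted p-values from 0.832 to 1.00. Of the genes below the filter, EOMES had 8 and 4 counts with recruitment, 0.449 and 0.270 CPM, and 0.285 to 0.508 CPM in control. A repression of EOMES or GATA6 was hardly detectable at this depth, since their control levels of 0.369 ± 0.0996 and 0.310 ± 0.117 CPM (SD, n = 4) lay close to the floor of these libraries. FOXA2, at 0.337 and 0.270 CPM with recruitment, lay above its control range of 0.0770 to 0.171 CPM, from 6 and 4 counts against 1 to 5, and without the filter it did not pass (log2 fold change 1.39, SE 0.66, edgeR adjusted p = 0.449).

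Whether the effect of recruitment differed between the fusions was tested as an interaction over all 12 libraries, where 21.0% of 16673 genes were called, 11.5% as higher and 9.53% as lower with dCas9-VPR. Of the 9 regulators tested, 2 were called. For EOMES the effect with dCas9-VPR exceeded that with dCas9-KRAB by 4.40 on the log2 scale (SE 0.56, edgeR adjusted p = 0.000103), and for FOXA2 it was lower, with a difference of -2.59 (SE 0.85, edgeR adjusted p = 0.0468). EOMES again passed the filter through the dCas9-VPR recruitment libraries alone, and without the filter its difference was 4.41 (edgeR adjusted p = 5.97e-05). FOXA2 passed the filter through the dCas9-VPR control libraries alone, so its entry into this test already required a difference. The FOXA2 call was at the edge of the threshold. It was lost with the replicate number as a block (edgeR adjusted p = 0.0502), with DESeq2's Wald test (adjusted p = 0.0959) and without the filter (edgeR adjusted p = 0.0573), and when 9 of the 12 libraries were left out in turn, in a gene with 16 counts at most in any library. Its difference was -3.90 without LTR5HS Sp dCas9-VPR replicate 1 and -1.89 without replicate 2. The interaction of GATA6 was 1.27 (SE 0.47, edgeR adjusted p = 0.0737), and it passed only without LTR5HS Sa dCas9-KRAB replicate 2 (1.41, edgeR adjusted p = 0.0323). That of GATA4 was 1.13 (SE 0.71, edgeR adjusted p = 0.303) and passed in none of its alternatives. This test shares its libraries with the comparisons within each fusion.

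The 2 control arrays were then compared with each other, since neither recruits the fusion to LTR5HS. With dCas9-VPR, 4.51% of 16271 genes differed between LTR5HS Sa and nontarget Sp, 1.90% higher and 2.61% lower in LTR5HS Sa, or 734 genes, and 3130 with the replicate block. HAND1 was called among the 8 regulators tested, lower in LTR5HS Sa by 1.74-fold (log2 fold change -0.80, SE 0.14, edgeR adjusted p = 0.0152), and GATA4 had a log2 fold change of the same size, -0.80 (SE 0.26), that did not pass (edgeR adjusted p = 0.136) but did with the replicate block (-0.81, edgeR adjusted p = 0.0172). With dCas9-KRAB, 0.567% of 15520 genes differed, 0.258% higher and 0.309% lower in LTR5HS Sa, or 88 genes, and 410 with the block. CXCR4 was called among the 6 regulators tested, lower in LTR5HS Sa by 2.97-fold (log2 fold change -1.57, SE 0.23, edgeR adjusted p = 0.0140). Both calls were lost when either LTR5HS Sa library of the respective fusion was left out, with adjusted p-values of 0.117 and 0.106 for HAND1 and 0.141 and 0.0900 for CXCR4.

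The fusions were then compared in the absence of recruitment. In the control libraries HAND1, GATA4, FOXA2, GATA6, MESP1 and MIXL1 were higher with dCas9-VPR than with dCas9-KRAB, and CXCR4 and HNF4A were lower. Of the 9 regulators tested 8 were called, where 55.4% of 16673 genes were called, 27.1% as higher and 28.3% as lower. The groups did not overlap for 7 of the 9, with 5 above and 2 below, against 48.0% of all genes tested, 22.7% above and 25.2% below, and the median log2 fold change was 0.91, against -0.01 over all genes tested. Apart from EOMES, a gene that is low with one fusion passed the filter through the other. EOMES was low in the controls of both fusions and passed it through the dCas9-VPR recruitment libraries, which are not contrasted here. The fusions sit in different lines and were compared across the 4 control lines.

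HAND1 showed the widest gap. It lay at 145, 148, 239 and 279 CPM in the dCas9-VPR controls and at 15.5, 4.19, 12.6 and 5.05 CPM in the dCas9-KRAB controls, so that the lowest library of the former was over the highest of the latter. The log2 fold change was 4.46 (SE 0.42, edgeR adjusted p = 2.70e-06), or 22.1-fold. It was 3.86 within the LTR5HS Sa libraries and 4.96 within the nontarget Sp libraries, an alternative chosen after seeing the data, and it passed in all 18 alternatives.

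The HAND1 promoter is shown for this gene, the most abundant of the 10, in the same way as above.
HAND1, chr5:154478178-154478477: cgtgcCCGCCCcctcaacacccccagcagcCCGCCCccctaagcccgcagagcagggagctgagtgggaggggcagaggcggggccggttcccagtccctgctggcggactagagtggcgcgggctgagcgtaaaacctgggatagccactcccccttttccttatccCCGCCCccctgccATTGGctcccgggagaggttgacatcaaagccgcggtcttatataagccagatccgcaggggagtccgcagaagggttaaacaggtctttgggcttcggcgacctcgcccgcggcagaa
The capitals mark GGGCGG at -245, -220 and -82 and CCAAT at -69, each on the opposite strand. GGGCGG was present in 45.0% and CCAAT in 34.6% of all promoters, and no guide matched here either.

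GATA4, GATA6 and FOXA2 had the same direction at lower levels. GATA4 lay at 1.99 to 4.73 CPM with dCas9-VPR and at 0.0776 to 0.785 CPM with dCas9-KRAB (log2 fold change 2.52, SE 0.39, edgeR adjusted p = 0.000137). GATA6 lay at 1.31 to 1.51 CPM against 0.155 to 0.415 CPM (2.08, SE 0.26, edgeR adjusted p = 2.30e-05). FOXA2 lay at 0.398 to 0.796 CPM against 0.0770 to 0.171 CPM (2.43, SE 0.47, edgeR adjusted p = 0.000764). None of these ranges overlapped, and the 3 calls passed in all 18 alternatives. Among the libraries with recruitment, the difference between the fusions was 3.64 for GATA4 and 3.36 for GATA6 on the log2 scale, but -0.16 for FOXA2 (SE 0.74, edgeR adjusted p = 0.869).

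MIXL1 was higher with dCas9-VPR at a smaller scale, with a log2 fold change of 0.77 (SE 0.19, edgeR adjusted p = 0.00442), and within the nontarget Sp libraries it did not pass (0.54, edgeR adjusted p = 0.0964). The call of MESP1, 0.91 (SE 0.36, edgeR adjusted p = 0.0434), was lost in 10 of 18 alternatives, 9 of which left out a library. Its ranges of 1.64 to 3.37 and 0.498 to 2.02 CPM overlapped.

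CXCR4 ran the other way. It lay at 1.24, 0.945, 1.08 and 0.421 CPM with dCas9-VPR and at 2.40, 2.64, 7.72 and 7.40 CPM with dCas9-KRAB, where both nontarget Sp libraries were highest. The log2 fold change was -2.45 (SE 0.43, edgeR adjusted p = 0.000352), -1.18 within LTR5HS Sa and -3.30 within nontarget Sp, and it passed in both. HNF4A lay at 0.199 to 0.443 CPM against 0.723 to 0.913 CPM (log2 fold change -1.27, SE 0.35, edgeR adjusted p = 0.00736), and within each array it did not pass (edgeR adjusted p = 0.0576 and 0.0666). EOMES had a log2 fold change of -0.88 (SE 0.37) that missed the threshold (edgeR adjusted p = 0.0571) and passed it without LTR5HS Sa dCas9-KRAB replicate 1 (edgeR adjusted p = 0.0485) or nontarget Sp dCas9-VPR replicate 2 (edgeR adjusted p = 0.0366). These values rested on 3 to 6 counts in each dCas9-VPR control library and 4 to 33 in each dCas9-KRAB control library.

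**Figure D4:**
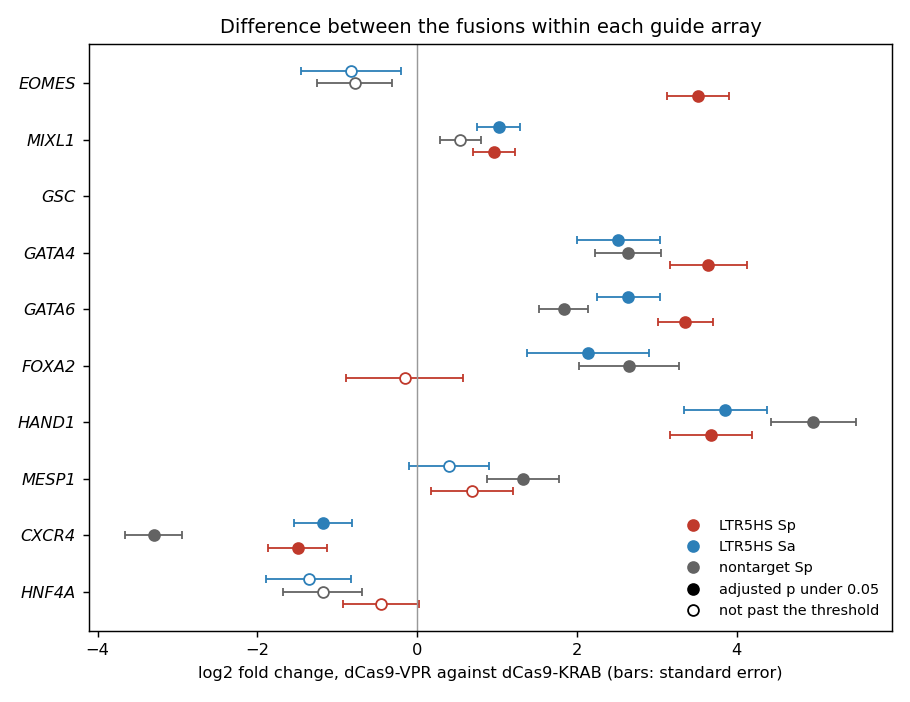
Log2 fold change of dCas9-VPR against dCas9-KRAB within each guide array, with its standard error, for the 9 genes tested. Filled points passed an edgeR adjusted p-value of 0.05. EOMES is filled with LTR5HS Sp alone, at 3.51. It passed the filter on low counts only through the dCas9-VPR recruitment libraries, which also enter that point. FOXA2 is filled with both control arrays, at 2.13 and 2.65, but not with LTR5HS Sp, at -0.16. It passed the filter only through the dCas9-VPR control libraries.

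The same libraries differed in their markers. All 10 pluripotency markers were lower in the dCas9-VPR controls, with a median log2 fold change of -2.29, and their summed level was given above. The trophoblast markers other than HAND1 summed to 152 to 371 CPM with dCas9-VPR and 203 to 247 CPM with dCas9-KRAB, and of the 6 tested, HAND1 included, 2 were higher (GATA3 and HAND1) and 1 lower (TFAP2C). The neural markers summed to 1082 to 1845 CPM and 657 to 1005 CPM, with 1 of 9 higher and 5 lower, the fibroblast and smooth muscle markers to 166 to 226 CPM and 208 to 249 CPM, with 3 of 6 higher and 2 lower, and the blood markers to 35.8 to 38.2 CPM and 20.9 to 25.9 CPM, with 1 of 3 higher. The part of these shifts in the levels of the 10 regulators was not tested.

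The wider pathways were described from lists of other genes, by their counts beside the 28.0% called with CRISPRa. Of 22 mesoderm genes tested, 9 rose and none fell, with a median log2 fold change of 0.66. They included TBX3, a T-box factor of heart and limb (log2 fold change 2.38, SE 0.17, edgeR adjusted p = 2.80e-05), MEOX1, a homeodomain factor of somites (2.34, SE 0.33, edgeR adjusted p = 0.00126), and LMO2, a partner in blood formation (4.73, SE 0.49, edgeR adjusted p = 0.000239). TBX3 was at 166 and 177 CPM with recruitment, against 27.3 to 39.6 CPM in control. For LMO2 the value was 6.34 against nontarget Sp alone and 4.02 against LTR5HS Sa alone. PDGFRA, PDGFRB, FOXC1, SNAI2, BMP4 and PAX3 made up the rest of the 9. MEOX1 and LMO2 needed their recruitment libraries to pass the filter on low counts.

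Of 10 streak genes tested, 4 rose and 3 fell, and the median log2 fold change was -0.29. Like EOMES, the streak genes EVX1, WNT3 and FGF17 needed their recruitment libraries to pass the filter on low counts, so that their place among the genes tested already required a difference. EVX1, a homeodomain factor of the posterior streak, went from 3 counts in all 4 control libraries together to 136 and 223 counts. The ratio of pooled counts for EVX1, scaled as for EOMES, was 263 with a 95% counting interval of 89.2 to 1281. Its fitted log2 fold change of 7.82 was 8.69 without LTR5HS Sa dCas9-VPR replicate 1, which held 2 of the 3 control counts. SP5, a target of Wnt signalling, rose by 41.2-fold, and WNT3, the ligand that starts the streak, by 22.5-fold (edgeR adjusted p = 2.44e-05 and 0.00750). The WNT3 call rested on LTR5HS Sp dCas9-VPR replicate 2, with 221 counts against 41 in replicate 1, and was lost without it (log2 fold change 2.85 in place of 4.49, edgeR adjusted p = 0.122). The size of its change also depended on LTR5HS Sa dCas9-VPR replicate 2, which held 20 of the 25 control counts, and without that library the log2 value was 6.32. Against nontarget Sp alone the log2 value was 6.39. As a linear fold it was also over 1.5 times larger without LTR5HS Sp dCas9-VPR replicate 1 and over 1.5 times smaller against LTR5HS Sa alone. SP5 had a log2 fold change of 5.37, and of 6.01 against nontarget Sp alone. Brachyury (T), a defining streak gene, had 2 counts at most in any library and was not tested.

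Of 17 endoderm genes tested, 4 rose and 4 fell, and the median log2 fold change was 0.27. CDX2, a factor of hindgut and trophoblast, rose by 13.2-fold (SE 0.39 on the log2 scale, edgeR adjusted p = 0.000252). LAMA1, a laminin chain of basement membrane, fell by 4.53-fold, from 80.2 to 87.2 CPM in control to 18.0 and 18.7 CPM (edgeR adjusted p = 7.06e-06). GATA5, a paralogue of GATA4 and GATA6, was 3.81-fold lower (edgeR adjusted p = 0.00833), and its call was lost without LTR5HS Sp dCas9-VPR replicate 1 (edgeR adjusted p = 0.0793). SOX17 was at 7 counts or fewer in every library and was not tested.

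Among the paralogues of the 10 genes, 4 of 8 tested rose and 2 fell, with a median log2 fold change of 0.23. GATA2, a blood and trophoblast factor, rose by 3.38-fold, at 52.5 and 51.9 CPM with recruitment and 13.1 to 17.9 CPM in control (edgeR adjusted p = 0.000103). CXCR5, a chemokine receptor of lymphocytes, rose by 6.17-fold from 3 to 7 counts in control (edgeR adjusted p = 0.00156), and it too passed the filter through its recruitment libraries alone. GATA family members thus went both ways in this comparison, with GATA2, GATA3 and GATA6 higher and GATA5 lower. CXCL12, the ligand of CXCR4, was at 33.5 and 28.6 CPM with recruitment and 28.6 to 39.2 CPM in control and did not pass (log2 fold change -0.09, SE 0.17, edgeR adjusted p = 0.727). ACKR3, the other receptor of CXCL12, rose by 1.58-fold (edgeR adjusted p = 0.0313), a call that was lost in 7 of 17 alternatives. In 4 of these an LTR5HS Sp or LTR5HS Sa library of dCas9-VPR was left out (edgeR adjusted p up to 0.174), and the others were nontarget Sp alone as control, all 12 libraries in one fit and a threshold of 0.01. It was the 1 gene of 3 tested that passed in the list of the CXCR4 ligand and its partners.

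Of 16 genes for the signals that induce mesendoderm, 6 rose and 2 fell, with a median log2 fold change of -0.06. LEF1, the nuclear partner of beta-catenin, rose by 23.3-fold, from 0.443 to 0.841 CPM in control to 15.0 and 14.6 CPM (edgeR adjusted p = 8.50e-06). SMAD3, WNT3, BMP4, CTNNB1 and AXIN2 rose as well. The 2 that fell were LEFTY1 and LEFTY2, inhibitors of Nodal, of which LEFTY2 was 6.26-fold lower (edgeR adjusted p = 0.000489).

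With CRISPRi, 2.77% of genes were called, 0.831% as higher and 1.94% as lower. In the lists, 1 of 6 streak genes, 1 of 17 endoderm genes, 3 of 20 mesoderm genes, 1 of 5 paralogues and 1 of 15 signalling genes rose. None of the list genes was called lower. Those that rose were WNT8A, GATA3, SNAI2, FOXC1 and BMP4, of which GATA3 and BMP4 stand in 2 lists each. GATA3, SNAI2, FOXC1 and BMP4 were also called higher with CRISPRa. In the interaction BMP4 was called, with the larger rise under dCas9-VPR, whereas GATA3, SNAI2 and FOXC1 were not called. WNT8A was called lower with CRISPRa. SNAI2 needed its recruitment libraries to pass the filter on low counts. SNAI2, a factor of mesenchymal transition, rose by 5.89-fold (edgeR adjusted p = 0.00578), GATA3 by 2.77-fold (edgeR adjusted p = 0.0259), WNT8A by 2.13-fold (edgeR adjusted p = 0.0411), BMP4 by 2.01-fold (edgeR adjusted p = 0.0146) and FOXC1 by 1.73-fold (edgeR adjusted p = 0.0252). Leaving out LTR5HS Sp dCas9-KRAB replicate 1 ended the calls of WNT8A, GATA3, SNAI2 and BMP4, and leaving out replicate 2 of that line ended those of WNT8A, GATA3, BMP4 and FOXC1, with adjusted p-values up to 0.288. Without nontarget Sp dCas9-KRAB replicate 2, the deepest library, WNT8A, GATA3 and FOXC1 did not pass (edgeR adjusted p = 0.147, 0.0819 and 0.0849), and WNT8A also did not pass without either LTR5HS Sa library of that fusion (edgeR adjusted p = 0.0915 and 0.0639). WNT8A did not pass against nontarget Sp alone (edgeR adjusted p = 0.0778) or LTR5HS Sa alone (edgeR adjusted p = 0.127), nor FOXC1 against LTR5HS Sa alone (edgeR adjusted p = 0.0862) or with all 12 libraries in one fit (edgeR adjusted p = 0.0786). At a threshold of 0.01, SNAI2 was the 1 of the 5 that passed.

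Markers of other cell types in the same CRISPRi comparison were as follows. The 8 trophoblast markers other than HAND1 summed to 378 to 420 CPM with recruitment and 203 to 247 CPM in control, without overlap, and TFAP2A made up 306 to 345 CPM of this with recruitment. Of the 6 genes of that list tested, 2 rose, GATA3 and TFAP2A, and none fell, while KRT7, ELF5 and CGA were at 3 counts or fewer in the recruitment libraries. The pluripotency markers summed to 4840 to 5121 CPM against 5114 to 6409 CPM, with none of 10 past the threshold, and the neural markers to 694 to 750 CPM against 657 to 1005 CPM, with none of 9. The fibroblast and smooth muscle markers summed to 189 to 205 CPM against 208 to 249 CPM, with 1 of 6 higher, LUM, and the blood markers to 22.3 to 26.3 CPM against 20.9 to 25.9 CPM, with none of 2. Their part in the values of HAND1 and of the 5 list genes was not tested.

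**Figure D5:**
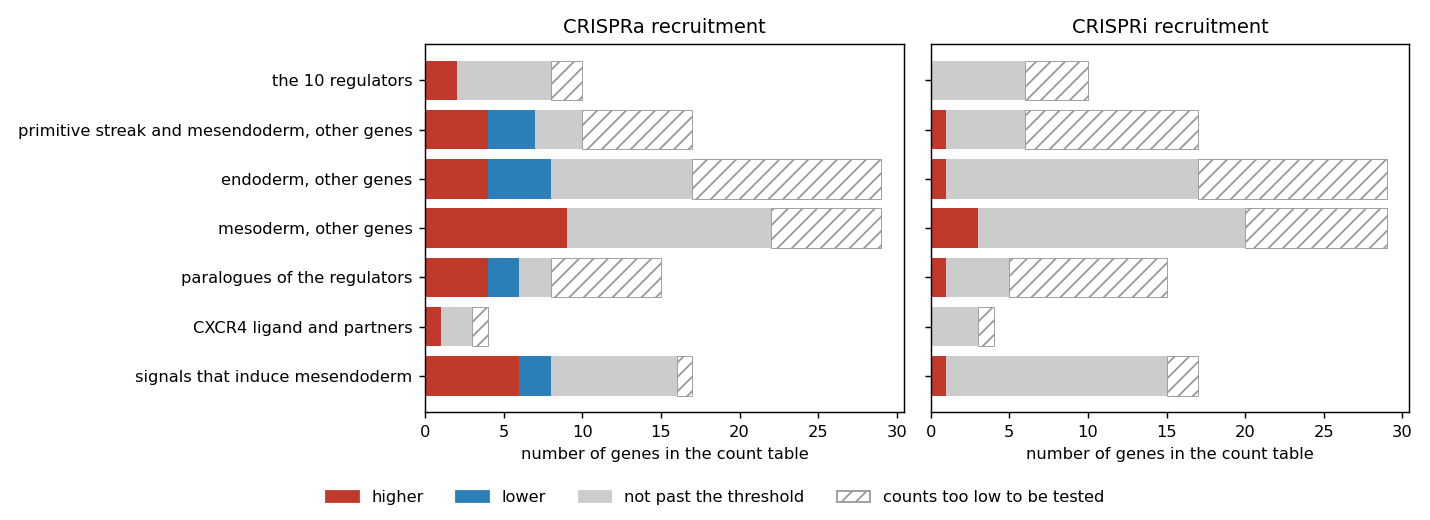
Number of genes of each list that were higher, lower or not past an edgeR adjusted p-value of 0.05 with recruitment, and of those with counts too low to be tested, for CRISPRa (left) and CRISPRi (right). The mesoderm list has 9 higher and 0 lower genes with CRISPRa, the endoderm list 4 and 4, and with CRISPRi no list has a gene called lower.

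The genes outside the 10 whose log2 CPM most resembled EOMES over the 12 libraries were CCDC27 (Pearson's r = 0.983) and SLC22A23 (r = 0.970), among 15140 genes tested with both fusions. For GATA6 the most alike was PRKXP1 (r = 0.994), a pseudogene that may share reads with its parent gene. These values describe 12 libraries that share lines, fusions and depth, and for EOMES the correlation is carried by the 2 recruitment libraries in which it was above the floor by a wide margin.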

How the data were processed

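Polyadenylated RNA of 12 NCCIT libraries had been prepared with random hexamers, without a mark of strand, and sequenced. Per the labels' processing notes, the tools were CASAVA 1.8, cutadapt 1.8.1, HISAT2 2.1.0 and featureCounts 1.4.6-p2 on hg38. Which annotation was counted, and with what strand setting, is not given in the sources used here, so reads of overlapping antisense genes cannot be told apart. The deposited values are raw counts per gene, with a gene length in bp from the authors' table that was used for RPKM, and 0 columns belonged to other samples.

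Counts were filtered with filterByExpr, scaled by TMM and tested with edgeR 4.0.16 (quasi-likelihood F-test) in R 4.3.3, with Benjamini-Hochberg adjustment over all genes tested and a threshold of 0.05. The SE of a log2 fold change is its size divided by the square root of F. Within each fusion, 2 recruitment libraries were compared with 4 control libraries, which also serve the comparisons of control arrays and fusions, so these comparisons share libraries. DESeq2 1.42.0, other scalings, filters and controls, thinned counts and leaving out each library were the alternatives. The procedures were tested on simulated data in which 200 genes were changed. Of 100 2-fold changes, 50 were recovered with CRISPRa, 71 with CRISPRi, 28 in the interaction and 65 between the fusions. Of 100 4-fold changes, 89, 95, 72 and 94 were recovered in the same order. Unchanged genes called numbered 9, 14, 7 and 10 in that order. A 2-fold change was thus often missed in the simulation, most of all in the interaction. The 200 changed genes were a smaller share than was called in any of these comparisons, so the recovered numbers need not hold for the data. Counting intervals are exact at 95%.

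The replicate numbers come from the labels. Differences between replicates 1 and 2 correlated across genes between arrays (r = 0.241 to 0.333 with dCas9-VPR and 0.203 to 0.423 with dCas9-KRAB), so a replicate block was fitted as an alternative. Guide matches were perfect and searched in GRCh38 with GENCODE 44 gene starts, likeness was computed on log2(CPM + 0.1), and figures used matplotlib 3.10.9.

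The 10 genes and all lists were chosen with earlier results of these data known. The genes named are the 10, up to 3 called genes with the largest change per list and fusion, and the 2 genes most like each called one, of which 1 is not reported here. Other called list members, CXCL12, brachyury, SOX17 and the cell type markers were named after their values were seen.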

Additional observations from a re-analysis of the deposited data

Results flagged for a closer look

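GATA4 lay at 0.0776 CPM, from 1 count, in LTR5HS Sa dCas9-KRAB replicate 2, the shallowest library, whereas the other 3 dCas9-KRAB control libraries held 0.664 to 0.785 CPM. Its gap to the nearest of them took 0.829264 of the range of the group, just past the critical value of Dixon's test at the 95% level. Of 20 groups of 4 libraries examined, this was the 1 past that value, and chance gives about 1 in 20.

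The effect of recruitment on EOMES differed between the fusions by 4.40 on the log2 scale (edgeR adjusted p = 0.000103), higher with dCas9-VPR. EOMES passed the filter on low counts through the dCas9-VPR recruitment libraries alone, and without the filter the difference was 4.41 (edgeR adjusted p = 5.97e-05). The effect of recruitment on FOXA2 differed by -2.59 (edgeR adjusted p = 0.0468), from 16 counts at most in any library. FOXA2 passed the filter through the dCas9-VPR control libraries alone, and without the filter the call was lost (edgeR adjusted p = 0.0573).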

How the results depend on the processing

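Of 478 values of the 10 genes under alternatives, 418 kept their direction and side of the threshold, 29 lost the call, 8 gained it and 23 changed sign, while 287 of 317 values of list genes kept theirs and 30 lost the call. The number of genes called with CRISPRa was 2517 at a threshold of 0.01, and with CRISPRi 716 by DESeq2 and 236 at 0.01. Between the control arrays it was 3130 with the replicate block for dCas9-VPR, and 224 by DESeq2, 528 without a filter and 410 with the block for dCas9-KRAB. Leaving out each library gave 2299 to 4626 genes with CRISPRa, 214 to 441 with CRISPRi, 188 to 750 and 50 to 225 between the control arrays of dCas9-VPR and dCas9-KRAB. The counts moved by over 1.5 times without LTR5HS Sp replicate 1 or 2 with CRISPRa (2312 and 2299), without these or nontarget Sp replicate 2 with CRISPRi (234, 214 and 285), without LTR5HS Sa replicate 1 or 2 or nontarget Sp replicate 2 between the dCas9-VPR control arrays (192, 188 and 434), and without LTR5HS Sa replicate 1 or 2 (57 and 50) or either LTR5HS Sp library (225 each) between those of dCas9-KRAB. Within LTR5HS Sa alone 6910 genes and within nontarget Sp alone 8010 genes differed between the fusions, alternatives chosen after seeing the data.

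With CRISPRa the log2 fold change of HAND1 turned to 0.0331 with the control arrays as separate groups and, against LTR5HS Sa alone, to 0.43, that of MESP1 to 0.0433 and that of CXCR4 to -0.0920. With CRISPRi that of MESP1 turned to -0.00803 without a filter, -0.00175 with at least 10 counts, -0.0304 with separate control arrays, -0.23 against LTR5HS Sa alone and -0.0688 with thinned counts. Against LTR5HS Sa alone GATA4 turned to 0.21 and CXCR4 to 0.23, and with thinned counts HNF4A turned to -0.11. Leaving out each library gave CRISPRa values of -0.30 to 0.51 for CXCR4 and -0.18 to 0.17 for HAND1, and CRISPRi values of -0.24 to 0.36 for MIXL1, -0.25 to 0.54 for HNF4A, -0.27 to 0.23 for MESP1 and -0.85 to 0.13 for GATA4. None of these passed the threshold other than HAND1 against LTR5HS Sa. The cause was not tested.

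The replicate block changed the calls of HAND1 with CRISPRi, FOXA2 in the interaction and GATA4 between the dCas9-VPR control arrays, and no other call of the 10 genes. Levels from total counts were 0.949 to 1.08 times those given, and 3 of 40 moved by over 1 SD. The distance moved for 3 genes with 1 guide and for 4 with 4 guides. GSC, EOMES, GATA6 and FOXA2 lie near the floor of 3 counts in many libraries, which limits what can be detected. With 2 recruitment libraries from 1 line per fusion, a spread between lines was not measured.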
